A study of Mus musculus with 6 samples.

Results

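The 10 genes described here are the feedback regulators of Ras-ERK signalling: the phosphatases Dusp4, Dusp5 and Dusp6, the Sprouty inhibitors Spry1, Spry2 and Spry4, the Spred inhibitors Spred1 and Spred2, and the ETS factors Etv4 and Etv5. They were chosen by symbol, and all 10 were among the 18260 genes of the deposited table of read counts. The 6 libraries came from primary hepatocytes of liver tumours in male mice. In the 3 Ripply1 ΔHep libraries the tumours carried floxed Ripply1 alleles (loxP sites around exons 1 to 3) and Alb-Cre, a transgene whose albumin promoter drives the recombinase in hepatocytes. The 3 Ripply1 F/F libraries carried the same floxed alleles, and no Cre is named for them. Mice of both genotypes received diethylnitrosamine (DEN), a liver carcinogen, once by intraperitoneal injection at 90 μg per g and 6 weeks of age. After 3 weeks without treatment, 0.05% phenobarbital (PB), a tumour promoter, was fed for 27 weeks, and hepatocytes were taken 30 weeks after DEN. The labels give no source for the replicates beyond their number, so p-values measure the spread between these libraries, which may be technical.

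Growth factor receptors activate Ras, which starts the kinase relay of Raf, MEK and ERK. Active ERK enters the nucleus and induces transcripts whose products switch the relay off again: dual-specificity phosphatases remove the activating phosphates from ERK, and Sprouty and Spred proteins act upstream at the level of receptors, Ras and Raf. The ETS factors Etv4 and Etv5 are held down by the repressor Capicua, which ERK signalling relieves. Because these transcripts follow ERK activity, their levels are widely used as a readout of ERK output, and Sprouty and Spred genes are known as growth inhibitors in liver cancer.

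Total counts ran from 27772849 to 35894395 per library, and 1 CPM, the unit of counts relative to library size after TMM scaling, stood for 26.7 to 37.9 counts. Ripply1 itself had 1, 1 and 2 counts in the ΔHep libraries and 13, 8 and 12 in the F/F libraries. The pooled ratio of ΔHep over F/F was 0.101 (exact 95% interval 0.0259 to 0.283, counting error only). All ΔHep values lay below all F/F values, and an exact permutation test of CPM, two-sided, reached its smallest possible p with 3 libraries a side, 0.1. Reads from the part of Ripply1 outside the loxP sites can be counted from a deleted allele. Alb, the defining hepatocyte marker, lay between 70282 and 95219 CPM in ΔHep and between 81885 and 88838 CPM in F/F libraries. It was the 1 of 7 hepatocyte markers with a log2 fold change above 0, and the median of the 7 was -0.09. Of these markers 0 passed in edgeR (1.68% of all genes) and limma-voom (0.605%). In DESeq2 1 passed (9.00%), and 1 had an unadjusted edgeR p below 0.05 (21.1%). This was Serpina1c, a serum protease inhibitor with near-identical copies between which reads could be split, whose ΔHep libraries all lay below the F/F libraries (log2 fold change -0.62, edgeR adjusted p = 0.0743, DESeq2 adjusted p = 0.00107). Markers of other cells were present in both genotypes, and their values stand beside the results below.

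Promoter windows (250 bases before to 50 after the annotated start, GRCm38.p6) were found in RefSeq for 7 of the 10 genes. The upstream stretches of 3 of them are shown because the results turn on these genes: Dusp5 and Spry1 were the ones whose genotypes did not overlap, and Dusp6 was the most abundant. Each stretch is 160 bases on the plus strand, 5′ to 3′, ending at the base before the first annotated start. They lie at chr19:53528949-53529108 for Dusp5, chr10:99263071-99263230 for Dusp6 and chr3:37639787-37639946 for Spry1. Capitals mark matches to the ETS core CGGAA, read on both strands, or to the CArG box, the element bound by serum response factor.
Dusp5: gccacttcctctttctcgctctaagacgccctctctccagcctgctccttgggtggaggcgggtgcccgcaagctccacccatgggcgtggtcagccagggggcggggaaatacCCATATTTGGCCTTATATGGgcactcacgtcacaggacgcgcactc
Dusp6: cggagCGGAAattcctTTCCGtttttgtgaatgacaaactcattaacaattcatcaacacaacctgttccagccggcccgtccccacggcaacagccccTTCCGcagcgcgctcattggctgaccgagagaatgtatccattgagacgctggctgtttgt
Spry1: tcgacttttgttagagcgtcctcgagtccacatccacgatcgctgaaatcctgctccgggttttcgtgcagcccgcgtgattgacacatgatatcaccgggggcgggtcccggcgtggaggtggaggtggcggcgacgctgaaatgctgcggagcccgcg
The Dusp5 stretch held 2 adjoining CArG boxes and the Dusp6 stretch 3 ETS cores, while the Spry1 stretch held none of the motifs searched. The 7 genes had 8 windows. The ETS core was present in 5 of these 8, from 5 genes, against 29.9% of all 32851 promoter windows. Dusp5 was among these genes, with an ETS core 10 bases before the RefSeq start, past the end of the stretch shown. A CArG box was present in 1 of the 8 windows, against 1.63% of all windows. It was added to the search after the Dusp5 sequence had been seen. No window of the 7 genes held the AP-1 site TGANTCA (7.81% of all windows), the cyclic AMP element TGACGTCA (1.79%), the T-box element AGGTGTNA (3.03%) or the Capicua octamer TGAATGAA (1.3%), each searched on both strands. No searched motif overlapped another in the 3 stretches. These matches describe letters in the windows and were not tested for binding.

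No feedback regulator passed the test between genotypes, and Dusp5 and Spry1, both higher in ΔHep, came nearest to it. In edgeR's quasi-likelihood test with Benjamini-Hochberg adjustment over all 14552 genes tested, 0 of the 9 regulators tested passed an adjusted p of 0.05, against 1.68% of all genes. DESeq2 also called 0 (9.00% of all genes) and limma-voom 0 (0.605%), and so did edgeR with library totals only (4.43%) or a replicate block (1.62%). At an unadjusted p below 0.05 there were 2, both higher in ΔHep (Dusp5 and Spry1), where 21.1% of all genes lay below that value in either direction. The same 2 were the genes whose ranges did not overlap, higher in ΔHep, as in 15.3% of all genes. The median log2 fold change of the 9 regulators tested was 0.24, against -0.01 over all genes tested. Of the 9 values 6 were above 0, against 48.8% of all genes. Etv4 fell below the filter on low counts and is given by its counts.

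**Figure D1:**
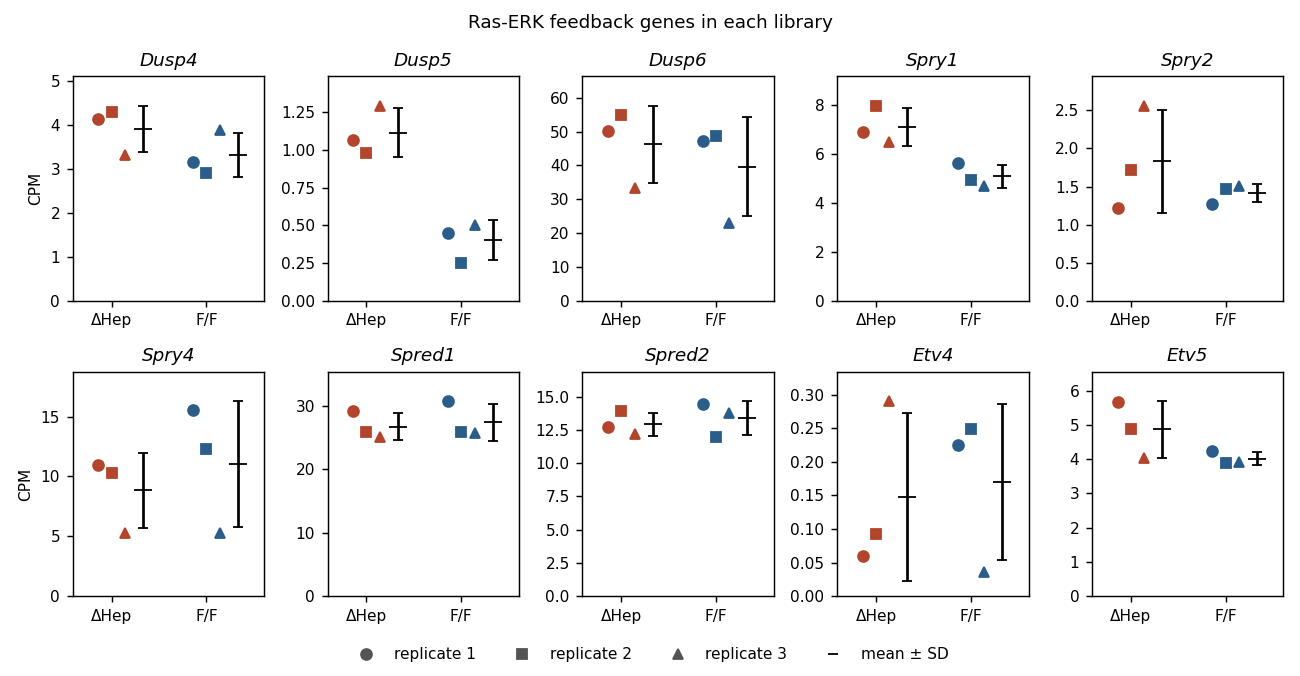
Expression of each feedback regulator (CPM, linear axis from 0) in 3 ΔHep libraries (left, red) and 3 F/F libraries (right, blue), with symbols for replicates and black bars for mean ± SD. Dusp5 lies between 0.980 and 1.29 CPM in ΔHep, above all F/F libraries, while Dusp6 and Spry4 are lowest in replicate 3 of each genotype.

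Dusp5 encodes a nuclear phosphatase that acts on ERK and holds it in the nucleus. It lies on chromosome 19 (mm10, 53529109 to 53542431, plus strand). Counts were 36, 32 and 49 in ΔHep and 12, 8 and 14 in F/F libraries. On the CPM scale these were 1.07, 0.980 and 1.29 in ΔHep replicates 1, 2 and 3, against 0.450, 0.249 and 0.502 in F/F replicates 1, 2 and 3. Every ΔHep library lay above every F/F library. Dusp5 averaged 1.11 ± 0.162 CPM in ΔHep and 0.400 ± 0.133 CPM in F/F (SD, n = 3 each). The log2 fold change was 1.48 (SE 0.42, 95% interval 0.53 to 2.43), the largest among the regulators tested. It did not pass after adjustment in edgeR (adjusted p = 0.101), DESeq2 (adjusted p = 0.0532) or limma-voom (adjusted p = 0.0983), and the adjusted p ranged from 0.0532 to 0.284 over all alternatives. With fewer than 50 counts in each library, counting error is a sizeable part of its spread.

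Dusp6 encodes a cytoplasmic phosphatase specific for ERK and was the most abundant of the group. It lies on chromosome 10 (99263231 to 99267489, plus strand). Levels were 50.3, 55.0 and 33.3 CPM in ΔHep replicates 1, 2 and 3, against 47.2, 48.8 and 22.9 CPM in F/F replicates 1, 2 and 3. The genotypes overlapped, and in both of them replicate 3 was the lowest library. Its log2 fold change was 0.22 (SE 0.29, 95% interval -0.44 to 0.88, edgeR adjusted p = 0.711). In fold terms this interval ran from 0.737 to 1.84, so neither a moderate decrease nor an increase could be told from no change.

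Dusp4, a nuclear phosphatase of ERK and other MAP kinases, had 4.12, 4.29 and 3.30 CPM in ΔHep libraries, against 3.15, 2.90 and 3.87 CPM in F/F libraries. The ranges overlapped through ΔHep replicate 3 and F/F replicate 3. Its difference in log2 terms was 0.24 (SE 0.22, 95% interval -0.27 to 0.75, edgeR adjusted p = 0.581).

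Among the Sprouty genes, whose products block growth factor receptors from activating Ras and Raf, Spry1 stood higher in each ΔHep library than in any F/F library. Spry1, on chromosome 3 (37639947 to 37644598, plus strand), had 6.90, 7.99 and 6.50 CPM in ΔHep libraries, against 5.62, 4.96 and 4.70 CPM in F/F libraries. Means were 7.13 ± 0.772 CPM in ΔHep and 5.09 ± 0.478 CPM in F/F (SD, n = 3 each). The log2 fold change was 0.49 (SE 0.17, 95% interval 0.09 to 0.88), a ratio of 1.40, and it did not pass (edgeR adjusted p = 0.166, DESeq2 0.145, limma-voom 0.169). Across the alternatives its adjusted p ran from 0.107 to 0.362.

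Spry2 was a low transcript, at 1.21, 1.71 and 2.56 CPM in ΔHep libraries, against 1.27, 1.46 and 1.51 CPM in F/F libraries. ΔHep replicate 1 was the lowest of the 6 libraries and ΔHep replicate 3 the highest, so the genotypes overlapped. Its log2 fold change of 0.37 (SE 0.34, 95% interval -0.41 to 1.16, edgeR adjusted p = 0.577) was 0.05 without ΔHep replicate 3.

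Spry4 was the only Sprouty gene with a negative log2 fold change. Levels were 11.0, 10.3 and 5.26 CPM in ΔHep replicates 1, 2 and 3, against 15.6, 12.3 and 5.23 CPM in F/F replicates 1, 2 and 3. As with Dusp6, replicate 3 was the lowest library of each genotype, and there the genotypes were almost equal. On the log2 scale the difference was -0.32 (SE 0.40, 95% interval -1.23 to 0.59, edgeR adjusted p = 0.696), and it was 0.01 without F/F replicate 1.

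The Spred genes were the steadiest of the group. Their products bring the Ras inactivator neurofibromin to the membrane. Spred1 had 29.2, 25.9 and 25.2 CPM in ΔHep libraries, against 30.8, 25.8 and 25.7 CPM in F/F libraries. Spred2 had 12.7, 13.9 and 12.2 CPM in ΔHep libraries, against 14.4, 12.0 and 13.8 CPM in F/F libraries. Both genes overlapped between genotypes. The log2 fold change was -0.04 for Spred1 (SE 0.12, 95% interval -0.31 to 0.24, edgeR adjusted p = 0.902) and -0.05 for Spred2 (SE 0.14, 95% interval -0.36 to 0.26, edgeR adjusted p = 0.866). These were the narrowest intervals among the regulators tested, and they left room for ratios from 0.805 to 1.18 for Spred1 and from 0.779 to 1.2 for Spred2.

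Of the ETS factors, Etv5 was expressed and Etv4 barely. Etv5, on chromosome 16 (22381309 to 22439719, minus strand), had 5.69, 4.90 and 4.04 CPM in ΔHep libraries, against 4.24, 3.90 and 3.91 CPM in F/F libraries. ΔHep replicate 3 fell within the range of the F/F libraries, and the other two lay above it. On the log2 scale Etv5 differed by 0.28 (SE 0.20, 95% interval -0.18 to 0.74, edgeR adjusted p = 0.46). Etv4 had 2, 3 and 11 counts in ΔHep libraries and 6, 8 and 1 in F/F libraries. The pooled counts of 16 in ΔHep and 15 in F/F gave a ratio of 0.886 (exact 95% interval 0.410 to 1.92, counting error only), and the exact two-sided permutation p of its CPM was 1. A difference in Etv4 was not detectable at this depth.

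**Figure D2:**
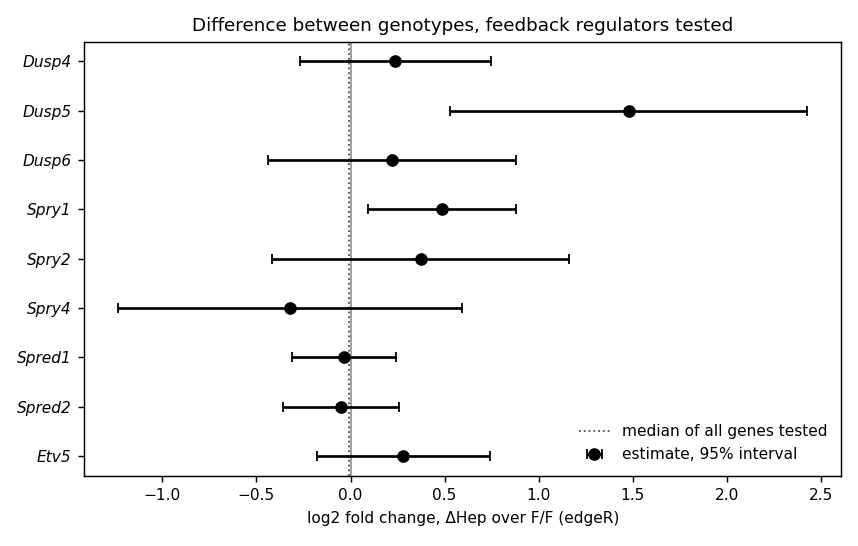
Log2 fold change of ΔHep over F/F for the 9 feedback regulators tested (edgeR), with 95% intervals before adjustment for multiple testing. The dotted line is the median of all genes tested, -0.01. The intervals of Dusp5 and Spry1 lie above 0, though neither gene passed after adjustment, and the other 7 intervals cross 0.

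Levels were then set in order per kilobase of exon (CPM divided by the union of GENCODE M21 exons), the scale on which genes can be compared. Dusp6 stood first, with 14.8 ± 3.64 CPM per kilobase in ΔHep and 12.7 ± 4.64 in F/F (SD, n = 3 each). Spred1 followed with 3.95 ± 0.316 in ΔHep and 4.04 ± 0.428 in F/F, and Spred2 with 2.80 ± 0.186 in ΔHep and 2.90 ± 0.273 in F/F. In both genotypes no library overlapped between Dusp6 and Spred1 or between Spred1 and Spred2. Next in ΔHep came Spry1 (2.45), Spry4 (1.86), Dusp4 (1.42), Etv5 (1.19) and Spry2 (0.877 CPM per kilobase), and from Spred2 to Spry2 each gene overlapped its neighbour. In F/F the order was Spry4 (2.32), Spry1 (1.75), Dusp4 (1.21), Etv5 (0.978) and Spry2 (0.678 CPM per kilobase), where Spry4 overlapped both Spred2 and Spry1 and the later neighbours did not overlap. Dusp5, at 0.450 ± 0.0657 in ΔHep and 0.162 ± 0.0539 CPM per kilobase in F/F, and Etv4, at 0.0474 ± 0.0403 and 0.0548 ± 0.0376 in ΔHep and F/F, were the lowest, separated from each other and from Spry2 in every library. The order was the same when the longest transcript was used as the length.

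The regulators varied to unequal degrees between libraries of 1 genotype. The within-genotype SD of log2 CPM was 0.72 for Spry4, higher than in 90.2% of all genes tested, and 0.51 for Dusp6, higher than in 81.6%. For Spred1 it was 0.13 and for Spred2 0.12, at the 21.7th and 17.2th percentile of all genes. Spry4 and Dusp6 were thus widely spread in both genotypes, and the Spred genes in neither. The low values of Dusp6 and Spry4 lay in replicate 3 of each genotype. Spry1 and Spred1 were also lowest in replicate 3 of both genotypes, by smaller margins, and Dusp4, Spred2 and Etv5 were lowest in ΔHep replicate 3 but not in F/F replicate 3. Dusp5 and Spry2 instead were highest in replicate 3 of both genotypes. The replicate numbers are not stated to link libraries across genotypes. With replicate 3 of both genotypes left out, a choice made after seeing the data, the log2 fold change was 0.13 for Dusp6 (edgeR adjusted p = 0.491) and -0.39 for Spry4 (edgeR adjusted p = 0.235), and neither passed.

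**Figure D3:**
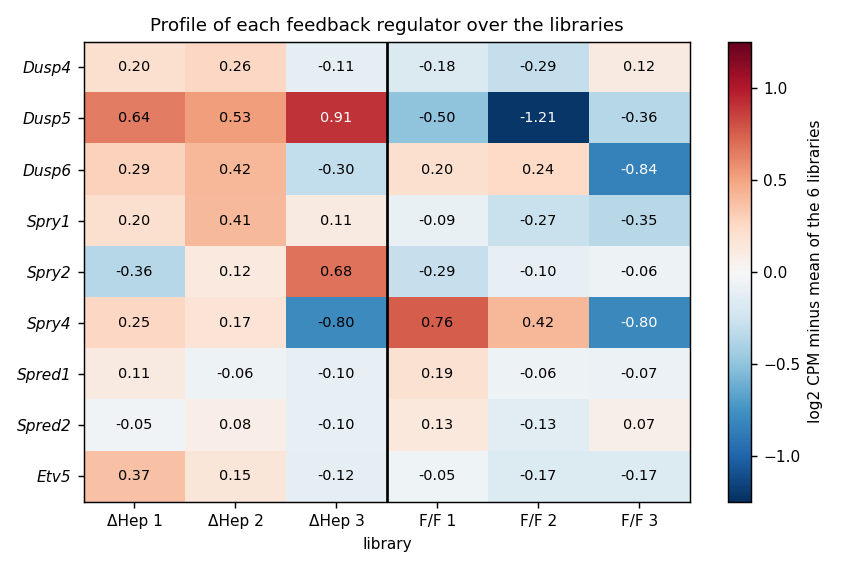
Log2 CPM of each of the 9 regulators tested (rows) in each library (columns), minus the gene's mean over the 6 libraries. Red is above and blue below that mean. Dusp5 splits by genotype (0.53 to 0.91 in ΔHep, -1.21 to -0.36 in F/F), whereas Dusp6 and Spry4 are low in replicate 3 of both genotypes.

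Profiles over the 6 libraries were compared by the root-mean-square difference of log2 CPM centred on each gene's mean. Within the group the closest pair was Spred1 and Spred2 (0.11), followed by Dusp4 and Etv5 (0.16), and the most distant was Dusp5 and Spry4 (1.13). This measure is small between genes that vary little, whatever their shape. Spred1 and Spred2 had the lowest SDs over the 6 libraries (0.12 and 0.11), so their closeness does not show a shared pattern. Dusp6 and Spry4, which varied more, differed by 0.33. Among 3053 other genes that varied at least as much, the nearest to Dusp6 were Mogat2 (0.12), an acyltransferase of triglyceride synthesis, Cenpw (0.17), a centromere protein, and the pseudogene Pgam1-ps2 (0.20). All 3 averaged below 2 CPM, so counting error enters their likeness. Nearest to Spry4 were the zinc transporter Slc39a2 (0.18), Emc6 (0.19), a subunit of the membrane protein complex of the endoplasmic reticulum, and the non-coding RNA Carmn (0.21), all below 1 CPM. Etv5 was closest to the transcription factor Tcf4 (0.08), Ccdc141 (0.09) and Ofd1 (0.09), a centriole protein. Tcf4 averaged 31.6 CPM in ΔHep and 25.5 CPM in F/F, with an edgeR adjusted p of 0.221.

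Part of the markers of cells other than hepatocytes rose in the ΔHep libraries, in which Dusp5 and Spry1 also stood higher. In bulk RNA, more cells of a type and more RNA per cell cannot be told apart. Of 10 stellate cell and fibroblast markers 6 rose (edgeR), where 1.51% of all genes rose. DESeq2 called 9 of these markers (9.00% of all genes) and limma-voom 1 (0.605% of all genes). Their summed level was 550 to 782 CPM in ΔHep and 272 to 392 CPM in F/F libraries. Endothelial markers summed to 504 to 577 CPM in ΔHep and 277 to 462 CPM in F/F, with 1 of 10 past the threshold in edgeR, higher, 2 in DESeq2 and 0 in limma-voom. Macrophage and Kupffer cell markers summed to 485 to 634 CPM in ΔHep and 208 to 523 CPM in F/F, with 1 of 10 higher in edgeR, 4 called in DESeq2 and 1 in limma-voom. Of the 9 cholangiocyte markers tested 5 rose in edgeR, while DESeq2 called 6 and limma-voom 0, and all 10 summed to 247 to 331 CPM in ΔHep and 146 to 219 CPM in F/F. T and NK cell markers stood at 8.66 to 23.5 CPM in sum in ΔHep and 5.36 to 6.2 CPM in F/F. Of these 8 markers 0 passed in edgeR, 3 in DESeq2 and 0 in limma-voom. At an unadjusted edgeR p below 0.05, 5 were higher in ΔHep (14.1% of all genes). The defining markers Col1a1, Pecam1, Adgre1, Krt19 and Cd3e were above 0 in every library. F/F replicate 3, lowest in Dusp6 of all 6 libraries, had the highest sums of the F/F libraries in 4 of these 5 marker lists. Its macrophage sum was 523 CPM, against 208 and 248 CPM in F/F replicates 1 and 2. The stellate and fibroblast sum was 392 CPM (272 and 296 CPM in F/F replicates 1 and 2), the endothelial sum 462 CPM (277 and 336 CPM) and the cholangiocyte sum 219 CPM (146 and 163 CPM). ΔHep replicate 3, also low in Dusp6, had a macrophage sum of 534 CPM, between 634 and 485 CPM in ΔHep replicates 1 and 2. Its stellate and fibroblast sum was 770 CPM (550 and 782 CPM in ΔHep replicates 1 and 2). The cholangiocyte sum of ΔHep replicate 3 was 251 CPM (247 and 331 CPM). Highest of the ΔHep libraries were its endothelial sum of 577 CPM (553 and 504 CPM) and its T and NK cell sum of 23.5 CPM (17.4 and 8.66 CPM). The part of these cells in the values of the feedback regulators was not tested.

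The rest of the pathway was described by 5 lists of its genes, of which 70 genes were tested. Most of the relay itself did not pass: of 25 tested genes from Ras and its adaptors to ERK, 1 rose, 0 fell and 24 did not pass, where 1.51% of all genes rose and 0.165% fell. Their median log2 fold change was -0.01, as over all genes tested. The one that rose was Shc2, an adaptor that links receptor tyrosine kinases to Ras. Shc2 had 49, 116 and 209 counts in ΔHep and 2, 1 and 1 in F/F libraries, a pooled ratio of 77.7 (exact 95% interval 30.1 to 287, counting error only), with an edgeR adjusted p of 0.0329.

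Of 19 tested RasGAPs and other brakes of the pathway, 1 rose and 0 fell, against 1.51% and 0.165% of all genes, with a median log2 fold change of 0.47 (-0.01 over all genes). Rasal1, a GTPase-activating protein that turns Ras off, had 21, 38 and 46 counts in ΔHep and 1, 2 and 1 in F/F libraries. The pooled ratio was 21.8 (exact 95% interval 8.27 to 81.5, counting error only) and the edgeR adjusted p 0.0329. Every ΔHep library exceeded every F/F library in both Shc2 and Rasal1. With 1 or 2 counts in each F/F library, both genes passed the filter on low counts only through their ΔHep libraries. The separation of the genotypes is therefore no further support for these 2 calls.

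Among 6 tested phosphatases of the same family, 0 passed in edgeR (1.68% of all genes), 1 at an unadjusted p below 0.05 (21.1%), 1 in DESeq2 (9.00%) and 0 in limma-voom (0.605%). Dusp8, which acts mainly on JNK and p38, had 8.62, 3.73 and 5.60 CPM in ΔHep libraries, against 2.74, 2.28 and 1.94 CPM in F/F libraries (log2 fold change 1.37, SE 0.32, edgeR adjusted p = 0.0677, DESeq2 adjusted p = 0.00253). Dusp1, the most abundant of them, averaged 57.9 ± 28.9 CPM in ΔHep and 62.6 ± 6.88 CPM in F/F (SD, n = 3 each), with an edgeR adjusted p of 0.877. Its ΔHep libraries spread around the F/F libraries on both sides.

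Of 11 tested transcripts that ERK is known to induce in other settings, 1 rose (1.51% of all genes) and 0 fell (0.165%), with a median log2 fold change of 0.63. Egr1, an immediate early transcription factor whose promoter answers to ERK through serum response elements, had 16.4, 10.7 and 12.0 CPM in ΔHep libraries, against 5.96, 4.83 and 2.58 CPM in F/F libraries. Each ΔHep library was above all F/F libraries. Its log2 fold change was 1.55 (SE 0.30, edgeR adjusted p = 0.0467). A list of 9 tested genes held ETS factors under ERK control and, among the 9, Capicua itself. Of these, 0 passed in edgeR and limma-voom, 2 in DESeq2 (9.00% of all genes) and 3 at an unadjusted p below 0.05 (21.1%). Their median log2 fold change was 0.31. Elk3, an ETS factor of serum response elements, stood at 14.2 ± 0.754 CPM in ΔHep and 9.31 ± 1.43 CPM in F/F (SD, n = 3 each; log2 fold change 0.60, edgeR adjusted p = 0.0789). Elk4, the most abundant of that list, averaged 56.8 ± 1.44 CPM in ΔHep and 50.04 ± 10.5 CPM in F/F (edgeR adjusted p = 0.509). Over the 5 lists 3 of 70 tested genes passed in all, against 1.68% of all genes. This count was 0 without ΔHep replicate 2, ΔHep replicate 3, F/F replicate 1 or F/F replicate 2. In the same fits only 4, 5, 2 and 1 of all genes tested passed, in that order. Without F/F replicate 3 the count was 11, where 1246 of all 15049 genes tested passed. The counts of the lists thus rose and fell with those of all genes. DESeq2 called 9 (9.00% of all genes) and limma-voom 1 (0.605%).

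**Figure D4:**
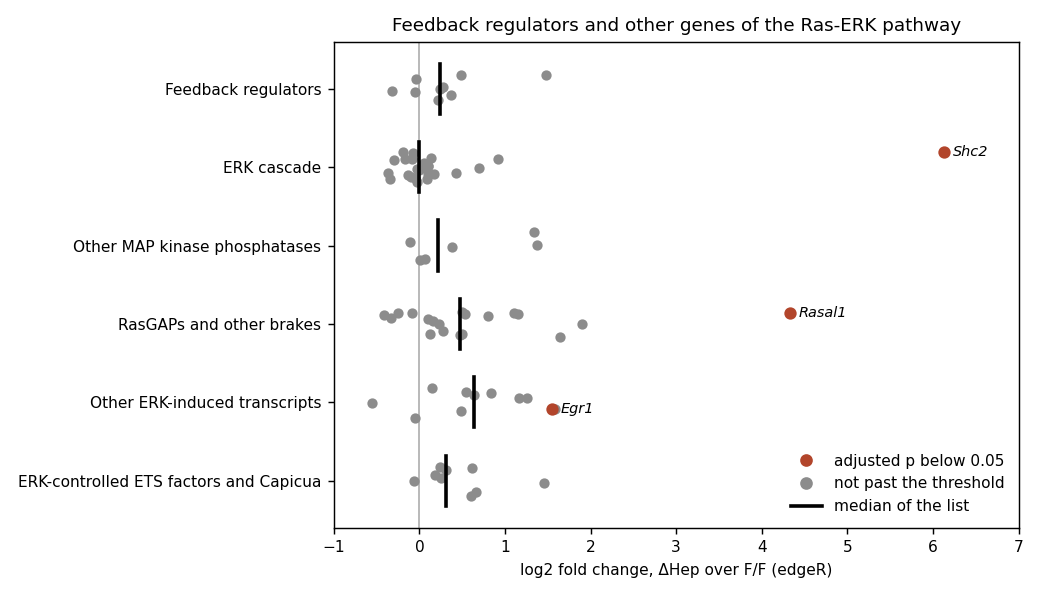
Log2 fold change of ΔHep over F/F (edgeR) for each tested gene of the feedback regulators and of 5 lists of other Ras-ERK pathway genes. Red points passed an adjusted p of 0.05, grey points did not, and black bars are list medians. Shc2, Rasal1 and Egr1 are the genes that passed, and no feedback regulator did.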

How the data were processed

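Raw counts were deposited by the authors as 1 table of 18260 gene symbols in 6 libraries. Reads were aligned to mm10 with HISAT2 2.0.4, per the submitters' processing notes; how reads were counted, on which annotation and with which strand setting, is not given in the sources used here, so reads of overlapping or antisense genes cannot be told apart. Libraries took their genotype from the titles. Counts were filtered with filterByExpr (minimum count 10, minimum total 15; 14552 genes kept), scaled by TMM and fitted with edgeR 4.0.16 in R 4.3.3 (quasi-likelihood F test, two-sided, genotype only, Benjamini-Hochberg over all genes, threshold 0.05). The SE is the size of the log2 fold change divided by the root of F. Alternatives were DESeq2 1.42.0, limma-voom 3.58.1, other scalings, no filter, a replicate block and each library left out. The fit was tested on simulated counts. Replicate pairs of a genotype differed by a chi-square per degree of freedom of 17.9 to 106, more than counting noise alone, so none was one library deposited again; this does not show that they came from separate animals.

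The members and lists were chosen with earlier results of these data known. Named genes are all 10 members, Ripply1, and from each list the genes past the threshold, or else the one with the smallest p and the most abundant; for Dusp6, Spry4 and Etv5 also the 3 nearest profiles. Exact intervals cover counting error only. Gene positions and exon lengths came from GENCODE M21.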

Additional observations from a re-analysis of the deposited data

How the results depend on the processing

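No feedback regulator passed the threshold under any of 12 alternatives to the fit (0 in each), and their median log2 fold change lay between 0.15 and 0.34. Directions reversed in 7 of 110 comparisons of single genes, all far from the threshold. With library totals only, which moved the median of all genes to 0.08, Spred1 was at 0.058 and Spred2 at 0.045. With single libraries left out, log2 fold changes ran from -0.064 (without F/F replicate 3) to 0.41 for Dusp6, from -0.66 to 0.0098 (without F/F replicate 1) for Spry4, from -0.10 to 0.059 (without F/F replicate 1; 0.0054 without ΔHep replicate 3) for Spred1 and from -0.13 to 0.0090 (without F/F replicate 1) for Spred2. The log2 ratio of mean CPM of Etv4 was -0.21 and ran from -1.17 to 0.17 with single libraries left out, that of Ripply1 from -3.69 to -3.17. Without a filter Ripply1 had an adjusted p of 0.0756 in edgeR and 0.035 in DESeq2. Among all genes, 244 passed, 644 with library totals only, 1309 with DESeq2, 88 with limma-voom and between 1 and 1246 with single libraries left out. For the 5 pathway lists the 3 calls became 7, 9 and 1 in the first 3 of these fits and between 0 and 11 with single libraries left out; the cause was not tested. Higher genes were 90.2% of the calls, and 81.7% with DESeq2. Same-numbered libraries did not deviate together over all genes (correlations 0.11, -0.07 and -0.01 for numbers 1, 2 and 3). With 3 libraries a genotype this cannot exclude a link. No label states one, so the main fit took the numbers as names only. With a replicate block 236 genes passed, 4 in the pathway lists and 0 feedback regulators, whose median was 0.27. The block lowered the SE of Dusp6 from 0.29 to 0.12 (log2 fold change 0.27, edgeR adjusted p = 0.285). That of Spry4 went from 0.40 to 0.16 (log2 fold change -0.26, edgeR adjusted p = 0.424). Depth limits Etv4, Dusp5 and Spry2, which had under 100 counts in each library.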

Other observations

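Dusp9, which encodes a cytoplasmic phosphatase of ERK and other MAP kinases, fell below the filter on low counts and was picked out after its values were seen. It had 6, 9 and 5 counts in ΔHep libraries and 0 in each F/F library. Set against an assumed 3 counts over the F/F group, the 20 pooled ΔHep counts gave a ratio of 5.54. This ratio leaves out the error of the ΔHep counts. With all genes kept, its edgeR adjusted p was 0.108, which did not pass, and the exact two-sided permutation p of its CPM was 0.1, the smallest possible.

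Il17rd, a membrane inhibitor of growth factor signalling also known as Sef, had 1.18, 1.13 and 1.48 CPM in ΔHep libraries, against 0.225, 0.374 and 0.610 CPM in F/F libraries. Ranges did not overlap (27.1% of all genes, either direction), the edgeR adjusted p was 0.0916 and the DESeq2 adjusted p 0.027. Spred3, the third Spred gene, had 0.444, 0.643 and 0.555 CPM in ΔHep libraries, against 0.187, 0.187 and 0.359 CPM in F/F libraries (edgeR adjusted p = 0.224). Both were named after their values were seen, and with Dusp5 and Dusp9 they are low transcripts whose counts in each F/F library were below 20. Il17rd and Spred3 belong to the list of RasGAPs and other brakes. Of its 19 tested genes, 6 ranged wholly higher in ΔHep and 1 wholly lower. Over all 14552 genes tested these numbers were 2220 and 1717. The lower one was Lrig1 (log2 fold change -0.42, edgeR adjusted p = 0.266).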
